A study of Homo sapiens with 36 samples.

Results

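The 6 HN4 libraries of an ACLY plasmid experiment were compared with each other: 3 libraries whose labels name the vector plasmid and 3 whose labels name a plasmid with ACLY. They are 6 of the 36 libraries of a study of the head and neck squamous cell carcinoma lines HN4, HN6 and Cal27, which also holds untreated cells and cells given IL-8 at 100 ng/ml for 24 h, with 3 libraries in each of 12 groups. ACLY itself was higher in the HN4 libraries labelled vector than in those labelled ACLY, so the comparison is given by the measured level: "high-ACLY" stands for the libraries labelled vector, "low-ACLY" for those labelled ACLY, and each log2 difference is high-ACLY minus low-ACLY. Whether the labels of the 2 HN4 groups were exchanged was not tested. The culture serum of every group was exosome-depleted, and both HN4 groups received a plasmid by transfection, which does not show how many cells took it up or for how long. A single established line stands for HN4, and the labels do not say that the 3 libraries of a group came from separate cultures. Each p-value therefore measures only a spread between libraries, which was estimated jointly over all groups of a fit. For high-ACLY against low-ACLY, the main fit also held the HN6 and Cal27 plasmid libraries. Its p-values thus do not rest on the spread of the 6 HN4 libraries alone.

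ACLY (ATP citrate lyase) cleaves citrate in the cytosol into acetyl-CoA and oxaloacetate. The acetyl-CoA feeds fatty acid and cholesterol synthesis and is also used to acetylate histones. IL-8, the product of CXCL8, is a chemokine that acts through the receptors CXCR1 and CXCR2 and is released by many squamous carcinoma cells.

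The 6 libraries held 16971277 to 19918680 counts. Levels are counts scaled to library depth (CPM), and a gene without reads may still lie at up to 0.151 to 0.177 CPM, depending on the library, a limit that covers counting error only. Of 12 genes that mark untreated HN4 among the 3 lines, the median level was 0.965 to 1.06 of that in untreated HN4 in the high-ACLY libraries and 0.956 to 1.01 in the low-ACLY libraries, and the medians of the 9 genes marking HN6 and the 13 marking Cal27 were at most 0.0034 of their own line's level in all 6. Low-ACLY replicate 3 stood apart: mitochondrially encoded genes took 2.15% of its counts, against 5.71% and 6.04% in the other low-ACLY libraries and 5.05%, 5.05% and 5.17% in the high-ACLY libraries. Over genes with at least 20 reads in a pair, its counts differed from those of replicates 1 and 2 by a chi-square of 36.6 and 41.1 per degree of freedom, and of 15.9 and 17.7 with the mitochondrially encoded genes left out, whereas replicates 1 and 2 differed by 3.29. Pairs of high-ACLY libraries differed by 2.41 to 2.76. What this library's state adds to each result was not tested. For high-ACLY against low-ACLY libraries, values without it are given beside a named gene whose call or fold it changes. They are also given beside list counts or medians that it moves by over 1.5 times.

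ACLY (ENSG00000131473, hg38 chr17:41866908-41930542, minus strand) was read at 1519, 1523 and 1503 CPM in the high-ACLY libraries, against 365, 373 and 316 CPM in the low-ACLY libraries. The fitted log2 difference was 2.11 (standard error 0.0525), given as a description because this level sets the direction. In HN6 and Cal27 the libraries labelled ACLY held the higher level: HN6 averaged 2218 ± 65.9 CPM with ACLY plasmid and 268 ± 4.57 CPM with vector, and Cal27 averaged 1900 ± 39.6 CPM with ACLY plasmid and 232 ± 12.5 CPM with vector (SD, n = 3 each). The HN4 libraries labelled ACLY therefore lay close to the vector levels of the other lines. The counts do not separate transcripts of the plasmid from those of the gene.

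**Figure D1:**
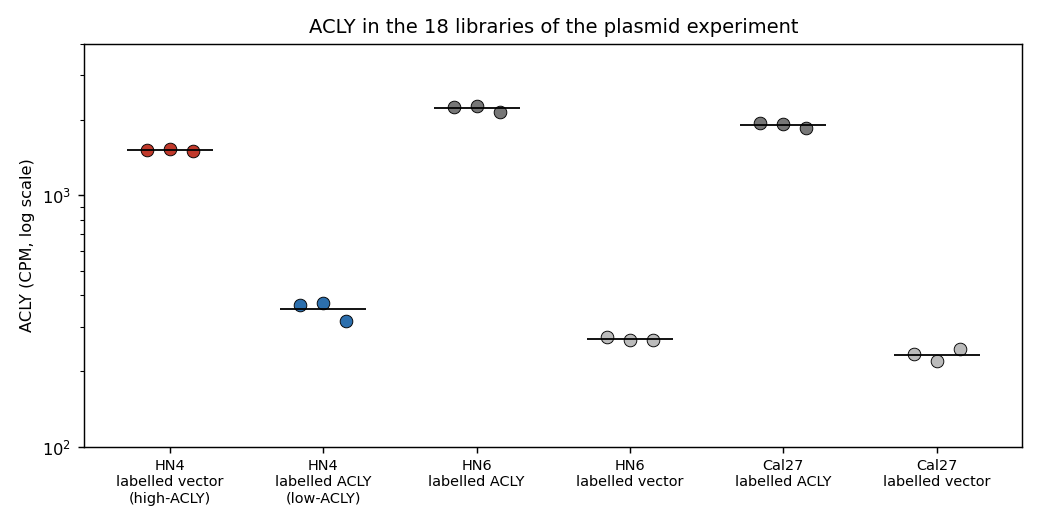
ACLY in CPM (log axis) in each of the 18 libraries of the plasmid experiment, with 1 point per library and a line at the group mean. The HN4 libraries labelled vector lie at 1503 to 1523 CPM and those labelled ACLY at 316 to 373 CPM, while in HN6 and Cal27 the libraries labelled ACLY are the high ones.

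Across the transcriptome, 7068 of 18557 genes tested passed an adjusted p of 0.05 (38.1%), 3552 higher in the high-ACLY libraries (19.1%) and 3516 lower (18.9%). The split depended on the scaling: with upper-quartile factors it was 2741 higher and 4403 lower. The differences were mostly small, with a median absolute log2 difference of 0.288 over all genes tested. Of the 1273 genes that also differed at least 2-fold (6.86%), 305 were higher (1.64%) and 968 were lower (5.22%). The levels of the 3 and 3 libraries did not overlap for 8265 genes (44.5%).

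Among the 15 largest rises, MMP3, the stromelysin that degrades matrix proteoglycans, was read at 19.1, 16.5 and 15.6 CPM in the high-ACLY libraries, against 1.27, 1.04 and 1.96 CPM in the low-ACLY libraries (log2 difference 3.57, standard error 0.219, adjusted p = 6e-14). VCAN, the matrix proteoglycan versican, was read at 110, 105 and 115 CPM in the high-ACLY libraries, against 29.1, 30.4 and 23.8 CPM in the low-ACLY libraries (log2 difference 1.99, adjusted p = 4.58e-08). Neither gene's groups overlapped, which was a condition for this set and held for 44.5% of all genes tested. The set also held COL4A4, a basement membrane collagen chain (2.44), SPP1, osteopontin (1.85), the contactin CNTN6 (1.79), the matricellular gene NOV (1.98) and the receptor phosphatase PTPRM (1.56). The rest were PKIB, an inhibitor of protein kinase A (2.47), ACLY, the helicase PIF1 (1.70), the keratin KRT6A (1.66), the ectonucleotidase ENTPD3 (1.62), the RNA-binding gene BICC1 (1.61), the polarity scaffold MPP7 (1.61) and the mitotic kinesin KIF20A (1.51). KRT6A has near-identical copies, and how reads matching several places were counted is not given in the sources used here.

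Among the 15 largest falls, CHAC1, which degrades glutathione, was read at 2.88, 3.96 and 4.65 CPM in the high-ACLY libraries, against 36.1, 32.1 and 35.5 CPM in the low-ACLY libraries (log2 difference -3.16, standard error 0.143, adjusted p = 1.93e-18). CA9, a carbonic anhydrase induced by hypoxia, was read at 6.65, 6.15 and 5.62 CPM in the high-ACLY libraries, against 41.9, 38.4 and 55.2 CPM in the low-ACLY libraries (log2 difference -2.88, adjusted p = 4.77e-18). In both the lowest low-ACLY library was several-fold above the highest high-ACLY library. Groups without overlap were a condition for this set as well. Next came ADM2 (-2.76), a peptide hormone of the adrenomedullin family, TXNIP (-2.67), DDIT4 (-2.48), DDIT3 (-2.34), the epidermal protease CASP14 (-2.17), the ephrin EFNB3 (-2.13), the glucocorticoid-induced gene TSC22D3 (-2.13) and LHX5 (-2.10), a homeobox gene. SESN2 (-2.08), JDP2 (-2.07), an AP-1 family repressor, ASNS (-2.05) and ULBP1 (-2.04), a ligand of the receptor NKG2D, were also among them.

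**Figure D2:**
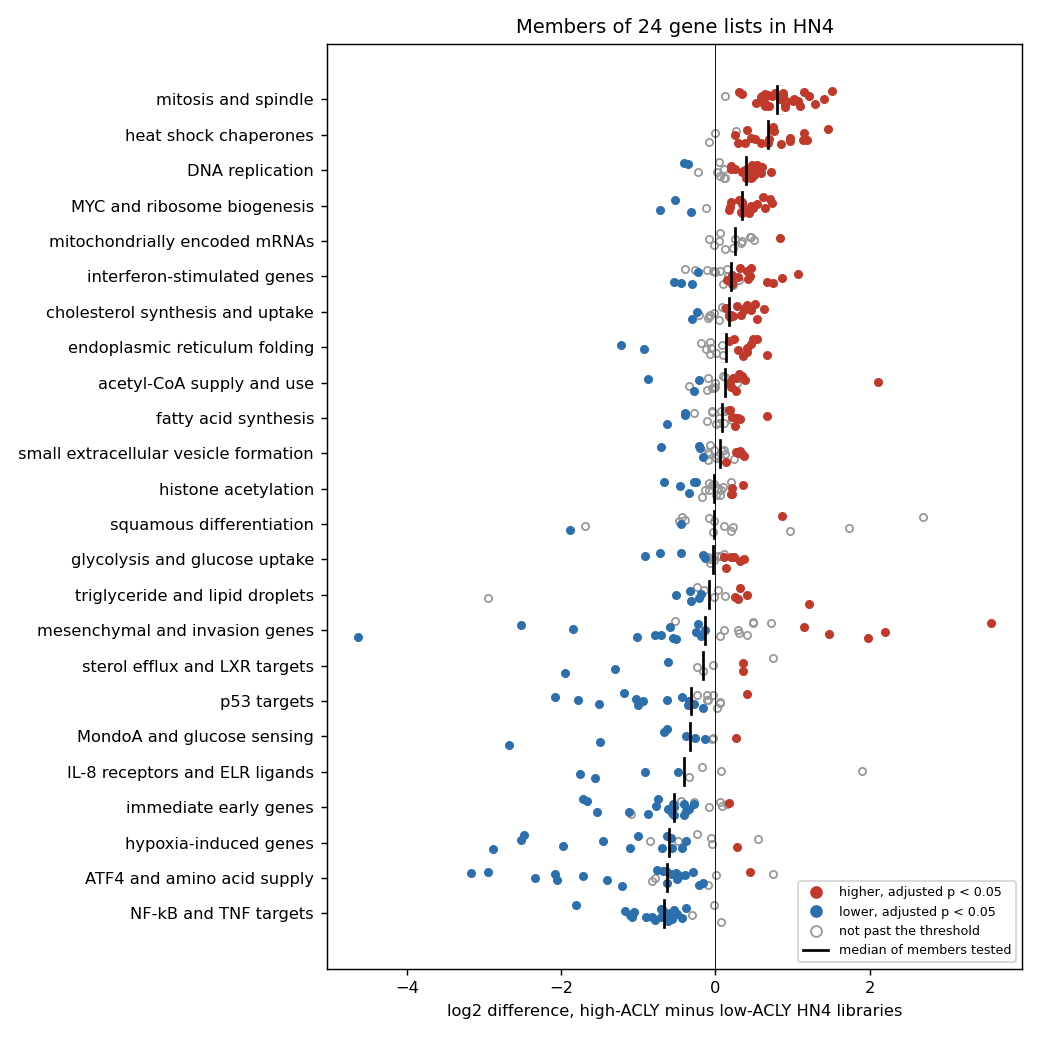
Log2 difference, high-ACLY minus low-ACLY HN4 libraries, for each tested member of 24 gene lists (1 point per gene, 3 libraries a group; red higher and blue lower at adjusted p under 0.05, open circles not past it, black bar the median). The mitosis list lies to the right with 29 of 30 members called higher, and the NF-kB and ATF4 lists lie to the left with 21 of 24 and 21 of 27 members called lower.

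Of 30 mitosis and spindle genes, 29 rose in the high-ACLY libraries and none fell, where 19.1% of all genes tested rose; the list's median log2 difference was 0.80, against -0.01 over all genes. KIF20A was read at 92.3, 85.9 and 91.5 CPM in the high-ACLY libraries, against 36.3, 32.6 and 26.0 CPM in the low-ACLY libraries (log2 difference 1.51, standard error 0.0753, adjusted p = 2.25e-17). The mitotic kinase AURKA was read at 191, 194 and 189 CPM in the high-ACLY libraries, against 71.3, 75.4 and 69.5 CPM in the low-ACLY libraries (1.41, standard error 0.0501, adjusted p = 1.5e-21). Both were at least 2-fold higher in each high-ACLY library than in any low-ACLY library. CDC20, which activates the anaphase-promoting complex, rose by 1.29, the kinase PLK1 by 1.22 and the cyclin CCNB1 by 1.09 on the log2 scale. The proliferation antigen MKI67 was read at 626, 602 and 686 CPM in the high-ACLY libraries and 383, 394 and 245 CPM in the low-ACLY libraries, lowest in replicate 3. CDC25C, the phosphatase that activates CDK1, did not pass the test (0.12). In bulk RNA, a larger share of dividing cells and more RNA per dividing cell cannot be told apart.

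Many mitotic promoters carry the cell cycle homology region, whose core is TTTGAA. These letters, on either strand, stood in 17 of the 24 promoters of this list that RefSeq's table holds (70.8%). They stood in 4212 of 27305 promoters of the same length (15.4%) and in 9.79% of those of protein-coding genes tested. Among genes that rose at least 2-fold, 33 of the 147 promoters held them (22.4%). The window runs from 250 bases before to 50 after the gene's start in GRCh38.p14. The PLK1 promoter (chr16:23678639-23678938, plus strand) is shown because its match lies close before the start; capitals mark the match.
PLK1: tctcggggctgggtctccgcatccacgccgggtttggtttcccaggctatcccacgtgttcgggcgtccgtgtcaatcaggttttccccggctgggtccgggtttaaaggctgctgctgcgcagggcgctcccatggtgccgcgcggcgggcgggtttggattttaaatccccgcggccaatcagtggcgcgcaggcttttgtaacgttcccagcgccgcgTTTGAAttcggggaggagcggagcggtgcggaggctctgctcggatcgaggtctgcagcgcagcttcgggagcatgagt
Each match described here and below is a run of letters in the window, not a measured binding site, and the promoters shown were picked among list members that hold one.

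DNA replication genes moved the same way with smaller steps, with a median log2 difference of 0.40. Of 30, 21 rose (24 without low-ACLY replicate 3) and 2 fell, where 19.1% and 18.9% of all genes tested did. The cyclin CCNE2, which starts S phase, was read at 23.3, 22.7 and 23.6 CPM in the high-ACLY libraries, against 13.4, 14.9 and 14.0 CPM in the low-ACLY libraries (log2 difference 0.72, adjusted p = 1.12e-06), with no overlap. UHRF1, which recruits the maintenance DNA methyltransferase, rose by 0.61, the helicase component GINS1 by 0.60 and the flap nuclease FEN1 by 0.54. The licensing factor CDT1 was among those that fell (-0.35). Of 23 MYC and ribosome biogenesis genes tested, 19 rose and 3 fell, with a median of 0.35. The nucleolar genes UTP20 (0.74), NOP16 (0.70) and NOP56 (0.65) rose most, MYC itself rose by 0.17, and the 3 that fell were MXD1 (-0.72), MXI1 (-0.52) and MXD4 (-0.31), which pair with MAX and repress MYC targets. Without low-ACLY replicate 3, MXD4 did not pass the test (-0.19, adjusted p = 0.211).

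Heat shock chaperones rose in the high-ACLY libraries: 19 of 22 rose, where 19.1% of all genes tested did. None fell, and the median log2 difference was 0.69. HSPH1, a large chaperone that also exchanges nucleotide on HSP70, was read at 537, 536 and 548 CPM in the high-ACLY libraries, against 228, 235 and 251 CPM in the low-ACLY libraries (log2 difference 1.18, standard error 0.0498, adjusted p = 1.91e-19). HSPA8, the constitutive HSP70, was read at 2455, 2443 and 2469 CPM in the high-ACLY libraries and 1225, 1305 and 1237 CPM in the low-ACLY libraries (0.97, adjusted p = 1.33e-17). The 3 high-ACLY libraries lay within a narrow range for both genes, far above the low-ACLY ones. The HSP90 cochaperone CHORDC1 rose by 1.14 and STIP1, which links HSP70 to HSP90, by 0.86. HSPA1A (1.46) and HSPA1B (1.15) rose as well, but they are near-identical and reads may have been split between them. HSF1, the factor that induces these genes, did not pass the test (-0.09).

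Heat shock elements hold inverted GAA repeats. The letters GAANNTTC stood in 7 of 20 promoters of this list (35.0%), against 6.87% of all promoters in the table. The share was 4.74% for protein-coding genes tested and 6.12% for genes that rose at least 2-fold. The HSPA8 promoter (chr11:123062087-123062386, minus strand) is shown because it holds 2 matches; capitals mark them.
HSPA8: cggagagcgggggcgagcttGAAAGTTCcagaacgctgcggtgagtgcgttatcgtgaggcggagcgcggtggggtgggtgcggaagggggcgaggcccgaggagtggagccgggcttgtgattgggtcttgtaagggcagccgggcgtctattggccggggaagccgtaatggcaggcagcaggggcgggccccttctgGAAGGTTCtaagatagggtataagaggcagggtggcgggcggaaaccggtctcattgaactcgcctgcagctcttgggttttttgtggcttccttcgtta

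Of 20 genes of protein folding in the endoplasmic reticulum, 10 rose and 2 fell, where 19.1% and 18.9% of all genes tested did. The median was 0.14. Without low-ACLY replicate 3, 12 rose and the median was 0.24, and with upper-quartile factors 8 rose and 5 fell, with a median of 0.07. MANF, a secreted stress protein, rose by 0.66, HSP90B1 by 0.54 and HSPA5 (BiP) by 0.42. The pair that fell were HERPUD1, which acts in degradation of misfolded proteins, and XBP1, a factor of the unfolded protein response. HERPUD1 was read at 37.9, 41.4 and 42.2 CPM in the high-ACLY libraries, against 94.9, 102 and 88.1 CPM in the low-ACLY libraries (log2 difference -1.23, standard error 0.0673, adjusted p = 2.4e-16), and XBP1 fell by 0.92.

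RNA of most listed genes of the ATF4 pathway, which cells use when amino acids run short or translation is stressed, was lower in the high-ACLY libraries. Of 27 ATF4 and amino acid supply genes tested, 21 fell and 1 rose, where 18.9% of all genes tested fell; the list's median log2 difference was -0.62. ATF4 itself was read at 329, 323 and 324 CPM in the high-ACLY libraries, against 520, 508 and 488 CPM in the low-ACLY libraries (log2 difference -0.63, standard error 0.0462, adjusted p = 4.21e-13). DDIT3 (CHOP), a factor of prolonged stress, was read at 7.07, 7.56 and 6.64 CPM in the high-ACLY libraries, against 37.1, 32.6 and 37.7 CPM in the low-ACLY libraries (-2.34, adjusted p = 1.87e-17). SESN2, which restrains mTORC1 when leucine is scarce, was read at 21.5, 21.6 and 21.7 CPM in the high-ACLY libraries, against 90.8, 88.7 and 94.2 CPM in the low-ACLY libraries (-2.08, adjusted p = 1.14e-20). The gap between groups was many times the spread within either for each of these genes. The transcription cofactor NUPR1 fell by 2.95 from a low level, 3.29 to 3.88 CPM in the low-ACLY libraries. CTH, which makes cysteine, fell by 1.40, the pseudokinase TRIB3 by 1.21, the light amino acid transporter chain SLC7A5 by 0.51 and the cystine transporter SLC7A11 by 0.50. ALDH18A1, of proline synthesis, was the member that rose (0.45); without low-ACLY replicate 3, 2 rose.

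The composite element to which ATF4 binds with C/EBP factors reads TGATGNAA. It stood in 6 of 21 promoters of this list (28.6%), against 3.67% of all promoters in the table and 1.7% of those of protein-coding genes tested. Among genes that fell at least 2-fold, 13 of the 354 promoters in the table held it (3.67%). The promoters of CHAC1 (chr15:40953221-40953520, plus strand) and ASNS (chr7:97872359-97872658, minus strand), both among the 15 largest falls, are shown with the match in capitals; in CHAC1 it reads on the opposite strand.
CHAC1: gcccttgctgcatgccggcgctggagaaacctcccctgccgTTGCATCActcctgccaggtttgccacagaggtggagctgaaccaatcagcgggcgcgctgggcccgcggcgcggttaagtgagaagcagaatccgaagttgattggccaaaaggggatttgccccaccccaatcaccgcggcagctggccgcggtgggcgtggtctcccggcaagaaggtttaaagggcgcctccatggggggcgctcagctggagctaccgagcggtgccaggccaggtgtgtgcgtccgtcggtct
ASNS: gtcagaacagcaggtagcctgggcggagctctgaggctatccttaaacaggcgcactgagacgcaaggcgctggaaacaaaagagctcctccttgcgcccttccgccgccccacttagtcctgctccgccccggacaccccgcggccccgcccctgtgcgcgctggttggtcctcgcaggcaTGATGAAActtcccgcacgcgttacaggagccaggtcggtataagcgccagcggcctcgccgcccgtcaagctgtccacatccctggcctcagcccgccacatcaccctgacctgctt
ASNS, asparagine synthetase, was read at 2.64, 2.01 and 2.45 CPM in the high-ACLY libraries, against 9.75, 9.38 and 10.3 CPM in the low-ACLY libraries (log2 difference -2.05, adjusted p = 3.22e-11). Its groups did not overlap, which was a condition for the 15 largest falls.

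Hypoxia-induced genes and targets of the glucose sensor MondoA were also lower. Of 20 hypoxia-induced genes, 13 fell and 1 rose, where 18.9% and 19.1% of all genes tested did. The list's median log2 difference was -0.60. NDRG1, a stress-induced growth regulator, was read at 94.7, 97.2 and 95.7 CPM in the high-ACLY libraries, against 378, 388 and 361 CPM in the low-ACLY libraries (log2 difference -1.97, standard error 0.0497, adjusted p = 3.22e-26). DDIT4 (REDD1), an inhibitor of mTORC1, was read at 53.8, 56.8 and 56.9 CPM in the high-ACLY libraries, against 285, 274 and 375 CPM in the low-ACLY libraries (-2.48, adjusted p = 1.96e-09). Groups did not overlap in either gene, which for DDIT4 was a condition of its place among the largest falls. The highest DDIT4 value was that of low-ACLY replicate 3. The angiogenic factor VEGFA fell by 1.00 and the oxygen sensor EGLN3 by 1.46, while the peptide hormone gene ADM rose by 0.28. Of 10 MondoA and glucose-sensing genes, 7 fell and 1 rose; without low-ACLY replicate 3, 6 fell and none rose. TXNIP, an arrestin relative that limits glucose uptake, was read at 15.7, 13.2 and 14.1 CPM in the high-ACLY libraries, against 89.1, 91.5 and 93.4 CPM in the low-ACLY libraries (-2.67, standard error 0.0586, adjusted p = 7.95e-28), and its relative ARRDC4 fell by 0.66. The core hypoxia element ACGTG stood in 8 of 15 promoters of the hypoxia list (53.3%), against 21.6% of all promoters in the table, 26.0% of those of protein-coding genes tested and 63 of the 354 promoters (17.8%) of genes that fell at least 2-fold. The CA9 promoter (chr9:35673678-35673977, plus strand) is shown with its match, on the opposite strand, in capitals.
CA9: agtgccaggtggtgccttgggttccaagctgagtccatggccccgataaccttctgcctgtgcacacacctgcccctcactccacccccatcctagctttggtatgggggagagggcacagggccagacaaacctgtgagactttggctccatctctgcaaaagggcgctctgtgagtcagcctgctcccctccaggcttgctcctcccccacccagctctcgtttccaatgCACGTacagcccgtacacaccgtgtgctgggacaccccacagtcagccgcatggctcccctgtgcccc

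Inflammatory genes fell together. Of 24 NF-kB and TNF targets, 21 fell, where 18.9% of all genes tested did, and none rose. The list's median log2 difference was -0.66. IRAK2, a kinase of the IL-1 receptor complex, was read at 97.1, 105 and 106 CPM in the high-ACLY libraries, against 212, 221 and 218 CPM in the low-ACLY libraries (log2 difference -1.09, standard error 0.0573, adjusted p = 9.72e-17). The cytokine CSF2 (GM-CSF) was read at 22.4, 22.9 and 23.0 CPM in the high-ACLY libraries, against 50.6, 46.3 and 50.1 CPM in the low-ACLY libraries (-1.10, adjusted p = 5.88e-13). Each was lower in all 3 high-ACLY libraries than in any low-ACLY library. LTB (lymphotoxin beta) fell by 1.81, the adaptor TRAF1 by 1.17, the NF-kB subunit RELB by 1.05 and the inhibitor NFKBIA by 0.61. IL6 (-0.31), CCL2 (-0.02) and MAP3K8 (0.07) did not pass the test.

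CXCL8, which encodes IL-8, was read at 157, 135 and 147 CPM in the high-ACLY libraries, against 487, 463 and 531 CPM in the low-ACLY libraries (log2 difference -1.76, standard error 0.0566, adjusted p = 7.69e-23). The neutrophil chemokines CXCL2 (-1.56), CXCL3 (-0.91) and CXCL1 (-0.48) fell too, whereas CXCL5 (0.07) and CXCL6 (-0.17) did not pass the test. The receptors were at the limit of detection: CXCR1 had 1 read over the high-ACLY libraries and 0 over the low-ACLY libraries, and CXCR2 had 8 and 10. No difference in either receptor could be detected at this depth.

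Of 25 immediate early genes, 17 fell and 1 rose, against 18.9% and 19.1% of all genes tested, with a median of -0.54. EGR1, a transcription factor induced by growth signals, was read at 34.2, 33.7 and 34.5 CPM in the high-ACLY libraries, against 105, 113 and 79.3 CPM in the low-ACLY libraries (log2 difference -1.54, adjusted p = 3.14e-13), with low-ACLY replicate 3 the lowest of its group. The stress-induced factor ATF3 fell by 1.71, the phosphatase DUSP1 by 1.11 and FOS by 0.74. Without low-ACLY replicate 3, FOS did not pass the test (-0.46, adjusted p = 0.129). p53 targets fell in 13 of 22 cases and rose in 1, BAX (0.41), with a median of -0.31. The death gene BBC3 (PUMA) was read at 10.1, 8.57 and 8.83 CPM in the high-ACLY libraries, against 29.1, 29.5 and 35.7 CPM in the low-ACLY libraries (-1.78, adjusted p = 4.75e-15). The cell cycle inhibitor CDKN1A fell by 0.94 and the secreted stress hormone GDF15 by 1.18, while MDM2, the ligase that degrades p53, fell by 0.16 and FAS (-0.11) and SESN1 (-0.24) did not pass the test. SESN2 is on both the p53 and the ATF4 list.

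Interferon-stimulated genes moved up in part: 15 of 31 rose and 4 fell (13 and 5 without low-ACLY replicate 3), with a median of 0.20. Among all genes tested, 19.1% rose and 18.9% fell. IFIT1, which binds viral RNA ends, was read at 20.4, 17.9 and 19.6 CPM in the high-ACLY libraries, against 9.06, 9.73 and 8.80 CPM in the low-ACLY libraries (log2 difference 1.07, adjusted p = 1.37e-10). IFI27 rose by 0.87 and the antiviral enzyme RSAD2 by 0.75, whereas ISG20 (-0.53), STAT2 (-0.44), IRF1 (-0.30) and IFIT2 (-0.23) fell.

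The lists of lipid metabolism next to ACLY had medians closer to that of all genes. Besides ACLY, 9 of the other 22 genes of acetyl-CoA supply and use rose and 3 fell. Among all genes tested, 19.1% rose and 18.9% fell. The malic enzyme ME1, which makes cytosolic NADPH, was read at 85.6, 90.0 and 83.4 CPM in the high-ACLY libraries, against 68.0, 67.1 and 63.9 CPM in the low-ACLY libraries (log2 difference 0.38, adjusted p = 2.72e-06). ACSS2, which makes acetyl-CoA from acetate, fell by 0.21 and the pyruvate dehydrogenase kinase PDK2 by 0.87. The citrate carrier SLC25A1 did not pass the test (0.12); without low-ACLY replicate 3 it did (0.24, adjusted p = 0.00165). In fatty acid synthesis 8 of 22 genes rose and 3 fell, with a median of 0.09. Without low-ACLY replicate 3, 6 rose and the median was 0.06, and with upper-quartile factors 5 rose and the median was 0.02. FASN, the fatty acid synthase, was read at 1113, 1178 and 1179 CPM in the high-ACLY libraries and 869, 907 and 1014 CPM in the low-ACLY libraries (0.31, adjusted p = 4.32e-06), and the elongase ELOVL6 rose by 0.66. The carboxylase ACACA (0.11), the desaturase SCD (-0.05) and the lipogenic factor SREBF1 (0.01) did not pass the test.

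In cholesterol synthesis and uptake 14 of 25 genes rose and 2 fell, against 19.1% and 18.9% of all genes tested. The median was 0.17, and with upper-quartile factors 9 rose. HMGCS1, the HMG-CoA synthase, was read at 340, 350 and 345 CPM in the high-ACLY libraries, against 222, 222 and 222 CPM in the low-ACLY libraries (log2 difference 0.64, standard error 0.0483, adjusted p = 1.23e-12). NSDHL, of sterol demethylation, rose by 0.46 and FDFT1, the squalene synthase, by 0.41, while INSIG1, which holds the sterol sensor in the endoplasmic reticulum, fell by 0.23 (by 0.13 without low-ACLY replicate 3, adjusted p = 0.0459) and the factor SREBF2 did not pass the test (-0.02). The sterol element TCACNCCAC stood in 1 of 18 promoters of this list (5.56%), against 313 of 27305 promoters in the table (1.15%). Among promoters of protein-coding genes tested the share was 1.09%. Among 9 sterol efflux genes, the lipid carrier APOE fell by 1.30 and the transporters ABCG1 by 1.94 and ABCA1 by 0.62, while LPCAT3 and the HDL receptor SCARB1 rose by 0.36 each (LPCAT3 by 0.23 without low-ACLY replicate 3). APOE was read at 25.9, 26.2 and 23.4 CPM in the high-ACLY libraries, against 55.3, 56.2 and 73.9 CPM in the low-ACLY libraries, with replicate 3 the highest. Of 16 triglyceride and lipid droplet genes tested, 5 rose and 5 fell; the fatty acid carrier FABP5 rose by 1.22 and the acyltransferase DGAT2 fell by 0.51.

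Several lists were near the share of all genes tested (19.1% rose and 18.9% fell) or split between directions. Of 21 histone acetylation genes, 4 rose and 5 fell with a median of -0.01; the deacetylases HDAC5 (-0.66) and HDAC9 (-0.46) fell, the acetyltransferase KAT2A rose (0.36), and EP300 (-0.09) and CREBBP (0.08) did not pass the test. Without low-ACLY replicate 3, EP300 did (-0.19, adjusted p = 0.0453), and the list's median was -0.05. Of 20 glycolysis genes, 6 rose and 5 fell: ENO1 rose by 0.38 and LDHA by 0.20, whereas the isozymes ENO2 (-0.72) and ALDOC (-0.92) fell. Of 22 genes of small extracellular vesicle formation, 6 rose and 4 fell, with SDC4, a syndecan, at -0.70 and the docking GTPase RAB27B at 0.32; the vesicle marker CD63 (-0.07) did not pass the test. Of 16 squamous differentiation genes tested, 1 rose and 2 fell, with a median of -0.02; without low-ACLY replicate 3, none rose, 1 fell and the median was -0.14.

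Of 27 mesenchymal and invasion genes tested, 5 rose and 13 fell, against 19.1% and 18.9% of all genes tested, with a median of -0.13. Beside MMP3 and VCAN, the risers were the collagenase MMP1 (2.19), N-cadherin CDH2 (1.48) and thrombospondin THBS1 (1.16). THBS1 was read at 581, 606 and 611 CPM in the high-ACLY libraries, against 278, 286 and 243 CPM in the low-ACLY libraries (adjusted p = 2.07e-18). PLAU, the urokinase that activates plasmin, was read at 303, 301 and 301 CPM in the high-ACLY libraries, against 1054, 1059 and 1130 CPM in the low-ACLY libraries (log2 difference -1.84, adjusted p = 1.22e-26), and the integrin ITGB6 fell by 0.78. MMP9 had 1 read over the high-ACLY libraries and 33 over the low-ACLY libraries. The mesenchymal filament gene VIM was near the limit of detection in both groups, with 19 and 14 reads.

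Of the 15 squamous epithelial markers, 7 rose and 6 fell (5 and 7 without low-ACLY replicate 3), where 19.1% and 18.9% of all genes tested did. Their summed level was 5109 to 5174 CPM in the high-ACLY libraries and 6455 to 6509 CPM in the low-ACLY libraries, of which the laminin chain LAMB3 (-0.94) made the largest part. KRT14, counted among those that rose, had only 5 reads over the high-ACLY libraries and 0 over the low-ACLY libraries. KRT5 averaged 202 CPM in the high-ACLY libraries and 131 CPM in the low-ACLY libraries. Fibroblast markers summed to 68.4 to 69.2 CPM in the high-ACLY libraries and 54.9 to 56.6 CPM in the low-ACLY libraries, most of it FAP; COL1A2, COL3A1 and DCN had 0 reads in all 6. Leukocyte markers summed to 24.1 to 29.05 CPM in the high-ACLY libraries and 25.6 to 29.2 CPM in the low-ACLY libraries; PTPRC had 3 reads over the high-ACLY and 0 over the low-ACLY libraries, and CD3D and MS4A1 had 0 in all 6. Endothelial markers summed to 4.08 to 5.57 CPM in the high-ACLY libraries and 5.05 to 5.77 CPM in the low-ACLY libraries. Among 13 mitochondrially encoded mRNAs, 1 rose and none fell, where 19.1% and 18.9% of all genes tested did. Without low-ACLY replicate 3, 2 rose and 4 fell, and the median was -0.07 in place of 0.25.

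The same 6 libraries were then set beside the IL-8 experiment in HN4, on CPM of all 12 HN4 libraries. ACLY differed there as well: it was read at 1334, 1362 and 1352 CPM in HN4 given IL-8, against 375, 380 and 369 CPM in untreated HN4 (log2 difference 1.85, adjusted p = 8.3e-17). On that scale the high-ACLY libraries held 1510, 1516 and 1495 CPM and the low-ACLY libraries 362, 372 and 315 CPM. The high-ACLY libraries thus lay beside the IL-8 group and the low-ACLY libraries beside the untreated group. High-ACLY libraries and HN4 given IL-8 differed in 34 of 16375 genes (0.208%), 1 higher (0.00611%) and 33 lower (0.202%), and in 1197 at an unadjusted p of 0.05; DESeq2 called 56. Leaving out any 1 library of the pair of groups left 15 to 22. Low-ACLY libraries and untreated HN4 differed in 549 genes (3.35%), 303 higher (1.85%) and 246 lower (1.5%) in the low-ACLY libraries. The count was 1146 without low-ACLY replicate 3 and 299, 283 and 248 without untreated replicates 1, 2 and 3. For comparison, IL-8 and untreated HN4 differed in 4793 (29.3%). Experiment and treatment cannot be told apart in the first 2 of these comparisons.

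Of the 33 genes lower in the high-ACLY libraries than in HN4 given IL-8, 30 had a lower mean with IL-8 than untreated. That share was not counted over all genes, whose median log2 difference between IL-8 and untreated HN4 was -0.01. NDRG1 was read at 94.2, 96.7 and 95.2 CPM in the high-ACLY libraries, against 163, 155 and 166 CPM in HN4 given IL-8 (log2 difference -0.76, standard error 0.0462, adjusted p = 7.66e-10). TXNIP was read at 15.6, 13.2 and 14.1 CPM in the high-ACLY libraries, against 23.4, 22.5 and 24.8 CPM in HN4 given IL-8 (-0.72, adjusted p = 1.83e-05). In untreated HN4 the same genes averaged 445 and 67.6 CPM, the highest of the 3 groups. PLAU (-0.46), ARRDC3 (-0.69), CA9 (-0.96), CXCL8 (-0.42) and CXCL2 (-0.34) were also lower in the high-ACLY libraries. MMP3 (0.53), AURKA (0.14), HSPH1 (0.12) and CHAC1 (-0.57) did not pass that test. In the low-ACLY libraries, TRIB3 averaged 250.7 ± 29.1 CPM and in untreated HN4 134 ± 2.15 CPM (SD, n = 3 each; log2 difference 0.90, adjusted p = 2.13e-08); it has the smallest adjusted p of that comparison, followed by SESN2 (0.89) and SLC7A11 (0.70), all of the ATF4 list.

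**Figure D3:**
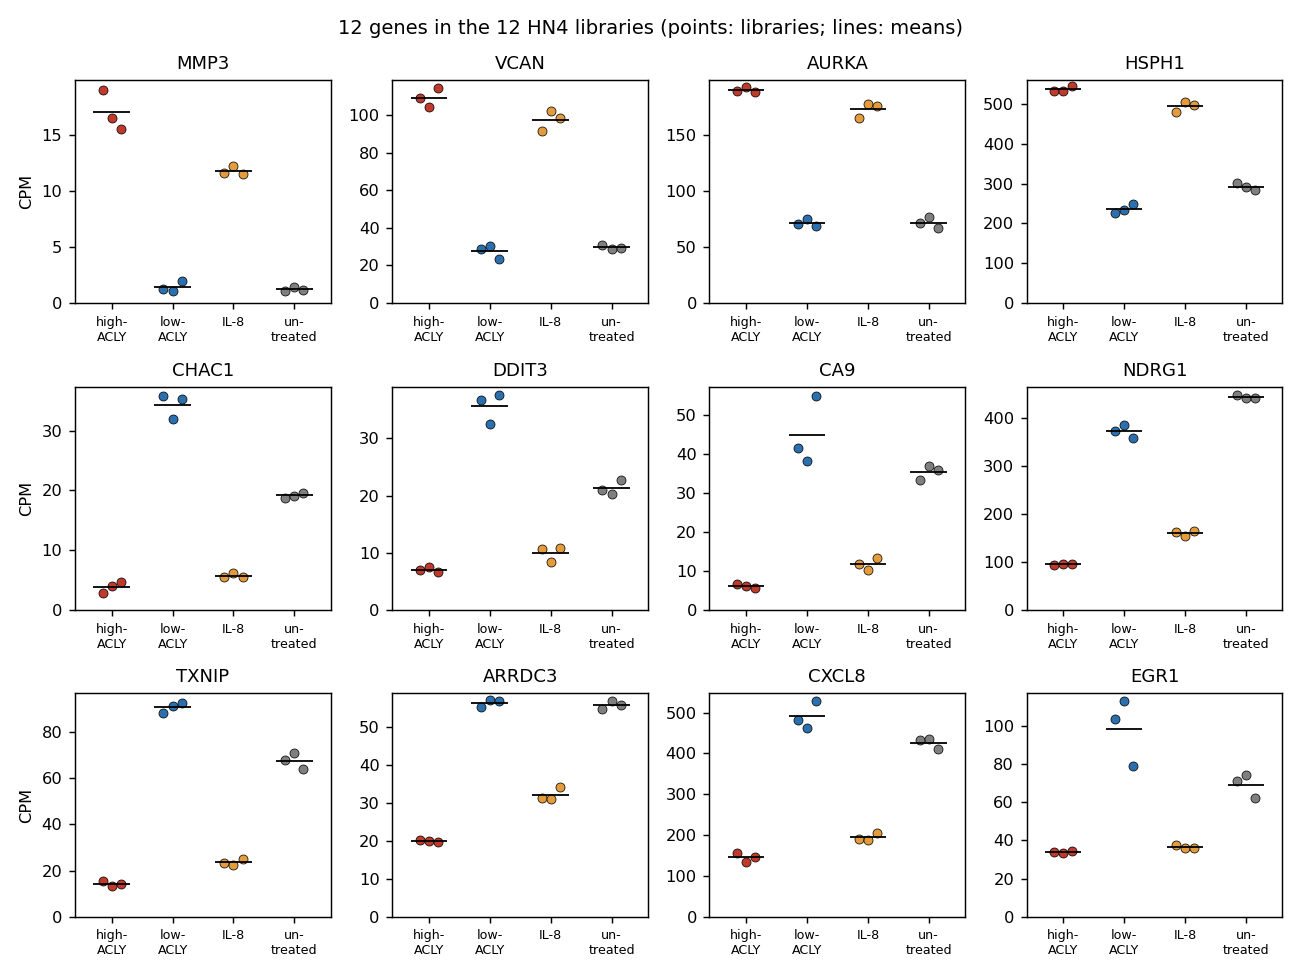
CPM of 12 genes in the 12 HN4 libraries (1 point per library, lines at the means of 3; linear axes from 0), for the high-ACLY, low-ACLY, IL-8 and untreated groups. The high-ACLY points mostly lie toward the IL-8 points and the low-ACLY points toward the untreated ones. NDRG1, TXNIP, CA9, ARRDC3 and CXCL8 are lower in the high-ACLY than in the IL-8 libraries at adjusted p under 0.05. Among the genes higher in the low-ACLY than in the untreated libraries are CHAC1, DDIT3 and TXNIP.

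Over 16375 genes, the log2 difference between high-ACLY and low-ACLY libraries and that between IL-8 and untreated HN4 had a Pearson correlation of 0.695 and a Spearman correlation of 0.713; this is across genes, which are not independent, and the 2 differences share no library. Of 3912 genes called in both, 3903 had the same sign (99.8%); the 3912 were 55.4% of the genes called between high-ACLY and low-ACLY libraries and 81.6% of those called for IL-8. By list, 27 of 30 mitosis genes and 19 of 22 chaperones were called higher with IL-8 (15.9% of all genes were), and 20 of 24 NF-kB targets and 13 of 26 ATF4 genes were called lower (13.4% of all genes were). The 2 differences themselves differed in 291 genes (1.78%), or 1088 without low-ACLY replicate 3 and 140 to 203 without any single library of the other 3 groups.

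Of the 6 genes with the largest gap between the 2 differences, 5 fell further than with IL-8. ADM2 was read at 3.16, 2.71 and 3.71 CPM in the high-ACLY libraries, against 24.8, 19.4 and 21.1 CPM in the low-ACLY libraries, and at 5.66, 4.91 and 4.54 CPM with IL-8, against 12.3, 12.9 and 11.05 CPM untreated (difference of the log2 differences -1.49, standard error 0.202, adjusted p = 0.000174). CHAC1 was read at 5.47, 6.19 and 5.43 CPM with IL-8, against 18.7, 19.1 and 19.6 CPM untreated (difference of differences -1.41, adjusted p = 7.76e-05). In both genes the low-ACLY libraries lay above the untreated ones and the high-ACLY libraries below the IL-8 ones. DDIT4 (-1.43), JDP2 (-1.37) and CA9 (-1.30) had the same form, whereas MAPK15, an atypical MAP kinase, differed in the other direction (1.35). On the ATF4 list 14 of 26 genes differed between the 2 differences, on the NF-kB list 9 of 24, and on the mitosis list none of 30, where 1.78% of all genes did. These list counts were not taken without low-ACLY replicate 3, where 1088 of all genes differed in place of 291. In the simulated data this test recovered 32.8% of 1.5-fold changes. The simulation gave every library the same spread, changed only well-counted genes and held no library like low-ACLY replicate 3. Its share is therefore not the recovery in these data. A list without a called gene may still hold differences of 1.5-fold or less.

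HN6 was compared with ACLY plasmid minus vector as labelled, which is also high-ACLY minus low-ACLY there. Over 18557 genes the correlation was -0.307 (Pearson) and -0.403 (Spearman), across genes and with no shared library. Of 4812 genes called in both, 713 had the same sign (14.8%) and 4099 the opposite sign (85.2%); the 4812 were 68.1% of the genes called in HN4 and 50.2% of those called in HN6. Counted by label instead, these shares change places, since the HN4 difference then changes sign. The difference between the lines passed the test for 9728 genes (52.4%).

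NDRG1 fell by 1.97 in HN4, whereas in HN6 it averaged 415 ± 17.5 CPM with ACLY plasmid and 23.9 ± 0.587 CPM with vector (SD, n = 3 each; log2 difference 4.12), a difference between the lines of -6.09 (standard error 0.0754, adjusted p = 8.61e-36). CHAC1 averaged 8.27 ± 0.954 CPM in HN6 with ACLY plasmid and 1.08 ± 0.366 CPM with vector (SD, n = 3 each), and the lines differed by -6.08 (adjusted p = 7.12e-21). CASP14 (-5.98), CA9 (-5.42), EGR1 (-4.82) and FNDC11 (-6.18) differed in the same direction, FNDC11 from a level near the limit of detection in HN6 vector libraries. All 6 fell in HN4 and rose in HN6. AURKA averaged 137 ± 1.93 CPM in HN6 with ACLY plasmid and 312 ± 9.13 CPM with vector (SD, n = 3 each), and the lines differed by 2.60 (adjusted p = 1.12e-25). HN6 itself had 51.6% of genes called between ACLY plasmid and vector. By list, 29 of 30 mitosis genes, 18 of 22 chaperones and 20 of 23 ribosome biogenesis genes fell in HN6, where 24.9% of all genes fell, and 19 of 20 hypoxia genes and 18 of 24 NF-kB targets rose, where 26.8% rose. The cholesterol list rose in both lines, with 14 of 25 genes in HN4 and 17 of 25 in HN6, and so did the interferon list, with 15 and 21 of 31.

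**Figure D4:**
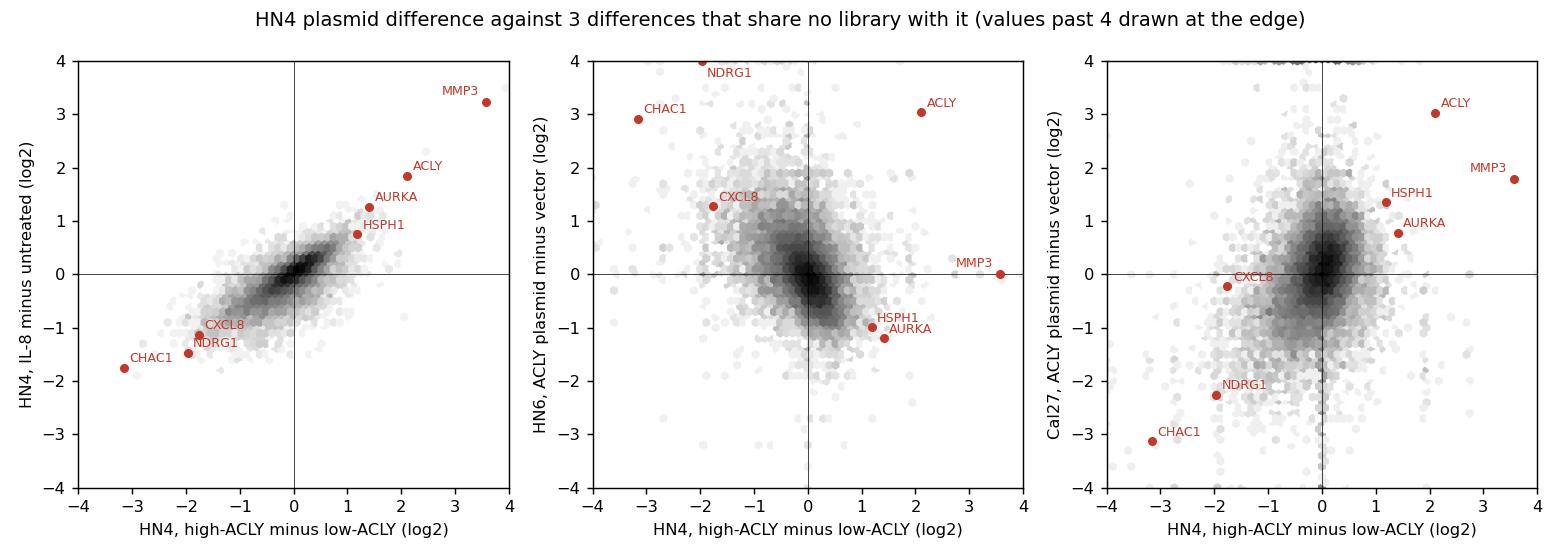
Log2 differences of all genes tested: HN4 high-ACLY minus low-ACLY on the horizontal axis, against HN4 IL-8 minus untreated (left), HN6 ACLY plasmid minus vector (middle) and Cal27 ACLY plasmid minus vector (right); darker cells hold more genes (log scale), and values past 4 are drawn at the edge. The cloud rises on the left (Pearson 0.695), falls in the middle (-0.307) and is diffuse on the right (0.155), with ACLY at the upper right of each.

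The Cal27 libraries labelled ACLY carried marker genes of HN4. The 12 genes that mark HN4 had a median level of 0.542 to 0.548 of that in untreated HN4 in the Cal27 libraries labelled ACLY and of 0 in those labelled vector, and the 13 genes marking Cal27 had 0.231 to 0.258 and 1.01 to 1.03 of their level in untreated Cal27. MAGED1, an adaptor of the MAGE family, averaged 28.9 ± 2.73 CPM in the Cal27 libraries labelled ACLY and had 0 reads in those labelled vector (SD, n = 3). ICA1, a gene of vesicle trafficking, averaged 26.2 ± 0.881 CPM against 0 reads. In HN4 these genes were read at 49.1 to 69.5 CPM in every library of both groups. The part of these line markers in the Cal27 differences was not tested, and plasmid and line content cannot be told apart there.

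The log2 differences of HN4 and Cal27 had a Pearson correlation of 0.155 and a Spearman correlation of 0.246 across 18557 genes. Of 5153 genes called in both, 3657 had the same sign (71.0%); they were 72.9% of the genes called in HN4 and 43.9% of those in Cal27. The lines' differences themselves differed in 8507 genes (45.8%), with HN4 higher in 3308 (17.8%) and lower in 5199 (28%). Cal27 itself had 63.2% of genes called between ACLY plasmid and vector. Chaperones were also higher in the Cal27 libraries labelled ACLY (19 of 22, where 34.2% of all genes were), as were 19 of 23 ribosome biogenesis genes. CHAC1 averaged 3.03 ± 0.381 CPM in Cal27 with ACLY plasmid and 26.4 ± 2.51 CPM with vector (SD, n = 3 each), a fall whose difference from that in HN4 did not pass the test (adjusted p = 0.937). In Cal27, 13 of 30 mitosis genes were higher and 6 lower, where 34.2% and 29% of all genes were, and 14 of 22 p53 targets were higher.

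**Figure D5:**
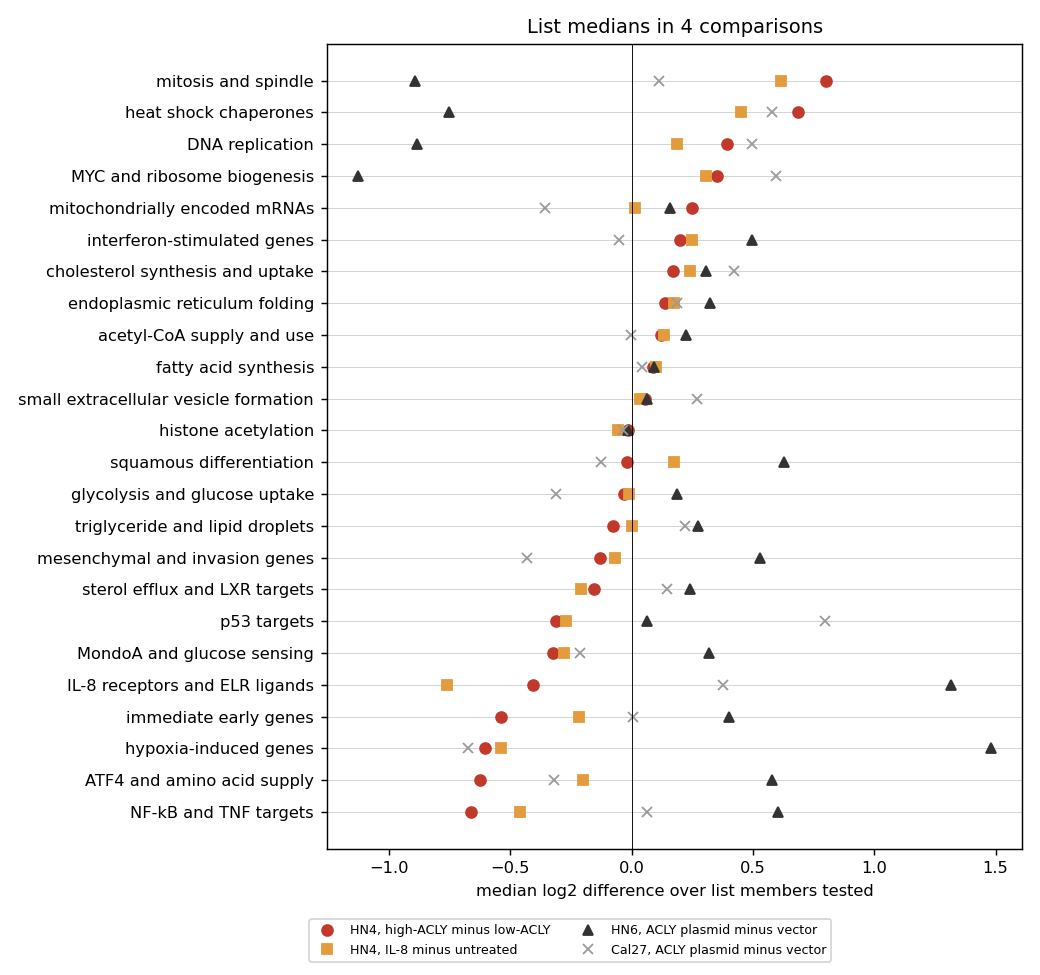
Median log2 difference over the tested members of 24 gene lists in 4 comparisons, each with 3 libraries a group: HN4 high-ACLY minus low-ACLY (circles), HN4 IL-8 minus untreated (squares), HN6 ACLY plasmid minus vector (triangles) and Cal27 ACLY plasmid minus vector (crosses). For mitosis the circle lies at 0.80 and the square at 0.62, while the HN6 triangle lies at -0.89.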

How the data were processed

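Poly-A RNA of the established lines HN4, HN6 and Cal27 was sequenced. The authors deposited whole-number counts per gene with no normalization; per the submitters' processing notes the tools included HISAT2 2.0.5, featureCounts 1.5.0-p3 and the build hg38. The strand setting and the treatment of reads matching several places are not given in the sources used here: overlapping and near-identical genes are therefore uncertain. Groups come from the labels.

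Counts of the 18 plasmid libraries (18557 genes), and of the 12 HN4 libraries for the IL-8 comparisons (16375 genes), were fitted with edgeR 4.0.16 in R 4.3.3: TMM factors, a filter with a minimum count of 10 and total of 15 (ACLY, CXCR1, CXCR2 and CXCL8 kept), and a robust quasi-likelihood fit with 12 and 8 residual degrees of freedom. Two-sided p-values were adjusted by Benjamini-Hochberg over all genes tested, and 0.05 was the threshold. Standard errors are the log2 difference over the square root of F, and CPM use TMM factors. Line markers had at least 20 CPM in 1 untreated line and under 0.3 in the others. DESeq2 1.42.0 and the other settings of the closing section were alternatives. The fits were tested on simulated data.

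Named genes were ACLY, the 15 largest rises and falls (protein-coding, mean log2 CPM of at least 1, no overlap, no Y-linked genes), up to 4 called members per list and the 6 largest differences between comparisons; other list members are named with values, and genes singled out between high-ACLY and IL-8 libraries or low-ACLY and untreated libraries were chosen after their values were seen. The libraries, 24 gene lists and 4 marker lists were chosen with earlier results of these data known. Some genes that these rules name are not reported here. Promoters are RefSeq's, GRCh38.p14.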

Additional observations from a re-analysis of the deposited data

Results flagged for a closer look

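Differences between comparisons were flagged where a test of the difference itself passed. The difference between high-ACLY and low-ACLY libraries differed from the IL-8 difference in HN4 for 291 genes, from the plasmid difference in HN6 for 9728 and from that in Cal27 for 8507. Against IL-8 the largest were ADM2 (-1.49), DDIT4 (-1.43), CHAC1 (-1.41), JDP2 (-1.37), MAPK15 (1.35) and CA9 (-1.30), as differences of log2 differences. Against HN6 they were FNDC11 (-6.18), NDRG1 (-6.09), CHAC1 (-6.08), CASP14 (-5.98), CA9 (-5.42) and EGR1 (-4.82). Against Cal27 they were MAGEA10 (-12.26), ICA1 (-12.22), MAGEA12 (-12.01), MAGEA1 (-11.93), MAGED1 (-11.73) and GLB1L2 (-11.62). These 6 genes had between 40.6 and 69.5 CPM in every HN4 library, so the values come from Cal27; where the Cal27 vector libraries hold 0 reads, as for MAGEA10, ICA1 and MAGED1, the fitted value depends on the prior count and is no bound. The MAGEA genes also have near-identical copies.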

How the results depend on the processing

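The tally took 2648 values, under the alternatives, of genes that the naming rules chose, all of which passed in the main fit. Of these, 2605 kept their direction and side of the threshold. Another 43 kept their direction but no longer passed, and none changed sign. Those that no longer passed were values of EGR2, KRT14, SPRR1B, PECAM1, MT-ND1, MLXIPL, RAB27B, OVOL1, AGPAT2, LPCAT3 and CSF1R. MAPK15 no longer passed for its difference from IL-8. List members named only with values are outside this tally. Without low-ACLY replicate 3, FOS and MXD4 no longer passed, and EP300 and SLC25A1 newly passed. CREBBP (-0.03) and SREBF2 (0.02) changed sign there, both without passing. MT-ND1 kept a log2 difference of 0.82 to 0.86 where it no longer passed (adjusted p = 0.0573 to 0.242). Without low-ACLY replicate 3 MT-ND1 passed with a smaller log2 difference of 0.49 (adjusted p = 1.23e-13). Requiring at least 2-fold left 1273 genes called between high-ACLY and low-ACLY libraries; upper-quartile factors gave 2741 higher and 4403 lower (38.4% higher, against 50.3%), with the median of all genes at -0.08. High-ACLY against low-ACLY libraries gave 5635 of 15578 genes with the 6 HN4 libraries alone and 5831 of 19350 with all 36 libraries. High-ACLY against IL-8 libraries gave 56 genes with DESeq2, 90 without a filter and 17 with all 36 libraries in 1 fit. Low-ACLY against untreated libraries gave 173 with all 36 libraries. The difference from IL-8 gave 481 without a filter and 79 with all 36 libraries. Leaving out 1 library at a time gave 6082 to 7193 genes for high-ACLY against low-ACLY, 15 to 22 for high-ACLY against IL-8, 248 to 1146 for low-ACLY against untreated, 140 to 1088 for the difference from IL-8, 9280 to 10036 for that from HN6 and 7935 to 8687 for that from Cal27; the cause was not tested. Same-numbered high-ACLY and low-ACLY libraries did not deviate together (correlations 0.00523, -0.0703 and -0.0817). For low-ACLY and untreated HN4 libraries the correlations were 0.0552, 0.167 and 0.147, not all over 0.1, so the samples were treated as sharing only a number. With a replicate block 6921 genes were called between high-ACLY and low-ACLY libraries, 28 between high-ACLY and IL-8 libraries and 454 between low-ACLY and untreated libraries. A fit of HN4 and HN6 without Cal27, added after seeing the data, changed the call of MT-ND1 and KRT14.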
